A study of Mus musculus with 12 samples.

Results

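The expression of 10 genes that build, sulfate and edit heparan sulfate was examined in Sol8, a line of mouse myoblasts that came from the soleus, with and without the sialic acid enzyme gene Gne. The genes are Ext1, Ext2, Ndst1, Ndst2, Glce, Hs2st1, Hs6st1, Hs6st2, Sulf1 and Sulf2. They were taken by name from a table that gives counts for 48586 genes, those without a read included. All 10 were among the 20415 genes with at least 10 counts in all, which were tested. One of them, Hs6st2, was selected on its near loss in Gne KO cells in these same libraries. Its KO values are therefore given as a description, without a test, and support nothing.

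The 12 libraries fall into 4 groups of 3, with each genotype, WT and Gne KO, in a proliferative and in a differentiated state. Proliferative cells grew in fetal calf serum (FCS) and differentiated cells in horse serum, so a change of serum comes with the change of state. In its stained cultures, the paper found KO cells in differentiation medium to be mainly single and unfused. For KO cells, differentiated and differentiation therefore name the culture condition here, not a cell state that was reached. KO cells come from 1 clone in which Cas9 removed part of an early Gne exon, with selection by puromycin, and WT cells are Sol8 cells without that deletion. An effect of the deletion and another property of that clone cannot be told apart. Within a group the labels number the libraries as biological replicates 1 to 3, and the study's methods speak of both independent cultures and triplicates. Whether the libraries of a group are separate cultures is therefore not certain, and p-values measure only the spread between them, which may be technical.

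Heparan sulfate is a long sugar chain that proteoglycans carry on the cell surface and in the matrix. The polymerases EXT1 and EXT2 extend it, NDST enzymes replace acetyl by sulfate groups, the epimerase GLCE turns glucuronic into iduronic acid, and HS2ST1 and the HS6ST enzymes add sulfate at the 2-O and 6-O positions. SULF1 and SULF2 act outside the cell and remove 6-O-sulfates again. The sulfate pattern sets how growth factors such as FGFs, which hold myoblasts in proliferation, bind to the chain and to their receptors.

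The libraries held between 22612038 and 29389759 counts. The spread between replicates was widest in proliferative cells, with an SD of the deviations from the group mean of 0.201 to 0.266 (log2) in Gne KO and 0.107 to 0.194 in WT, against 0.0595 to 0.0973 in differentiated cells. Normalized counts of Gne were between 255 and 285 in the 6 WT libraries and between 205 and 344 in the 6 Gne KO libraries. A deletion within an exon need not lower a gene-level count, so this count is no check of the labels. The summed level of 10 skeletal muscle markers was 49510 to 102687 normalized counts in WT proliferative, 113080 to 124208 in WT differentiated, 14220 to 23308 in KO proliferative and 12455 to 14330 in KO differentiated cells. Among WT proliferative libraries, library 1 was the highest for each of the 10. Its Myog was at 8899, against 2647 and 2459 in libraries 2 and 3, while Myf5 was at 2294 against 2144 and 2089. What set library 1 apart was not tested. The summed fibroblast list was at 199200 to 242059 in WT proliferative, 132915 to 157511 in KO proliferative, 175781 to 194543 in WT differentiated and 247926 to 258927 in KO differentiated cells, in the same unit. The smooth muscle list was at 67196 to 75572, 71021 to 107713, 33057 to 40934 and 20661 to 22367 in these groups. Col1a1 and Col3a1 made up most of the fibroblast sum, and its genes did not move together. Between WT and KO proliferative cells the mean of Col1a1 went from 108972 to 29728 and that of Col3a1 from 107218 to 110777. Pdgfra went from 1612 to 5009, Ly6a from 68.5 to 362 and Dpt from 81.1 to 88.2. The sum is thus no measure of fibroblast character. No adipocyte, endothelial, immune or nerve marker reached a mean of 100 in any group. In bulk libraries, fewer cells of a type and less RNA per cell cannot be told apart.

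Hs6st2 and its relative Hs6st1 encode 6-O-sulfotransferases, and the stretches around their start sites are shown because the pair parted in these cells. Hs6st2 lies on the minus strand at chrX:51387212-51681856 and Hs6st1 on the plus strand at chr1:36068400-36106446 in GRCm38. RefSeq sequences (GRCm38.p6) from 250 bases before to 50 bases after a start site were matched for 7 of the 10 genes, with 9 start sites in all. Capitals mark the motifs searched on both strands, which were CAGCTG, an E-box of the kind that muscle bHLH factors bind, and TATAAA.
Hs6st2 start site 1, chrX:51681553-51681852, minus strand: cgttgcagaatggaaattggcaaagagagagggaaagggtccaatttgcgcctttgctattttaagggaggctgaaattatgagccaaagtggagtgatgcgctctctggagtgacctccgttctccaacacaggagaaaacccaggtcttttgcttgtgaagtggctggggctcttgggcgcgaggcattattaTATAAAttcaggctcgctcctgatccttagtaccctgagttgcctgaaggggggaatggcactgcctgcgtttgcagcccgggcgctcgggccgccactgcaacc
Hs6st2 start site 2, chrX:51680428-51680727, minus strand: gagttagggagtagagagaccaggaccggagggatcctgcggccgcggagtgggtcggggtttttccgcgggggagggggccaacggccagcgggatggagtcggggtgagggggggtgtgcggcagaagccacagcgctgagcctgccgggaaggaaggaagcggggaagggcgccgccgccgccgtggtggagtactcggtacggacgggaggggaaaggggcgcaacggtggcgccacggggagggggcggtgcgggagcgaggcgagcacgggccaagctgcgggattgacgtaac
Hs6st1, chr1:36068150-36068449, plus strand: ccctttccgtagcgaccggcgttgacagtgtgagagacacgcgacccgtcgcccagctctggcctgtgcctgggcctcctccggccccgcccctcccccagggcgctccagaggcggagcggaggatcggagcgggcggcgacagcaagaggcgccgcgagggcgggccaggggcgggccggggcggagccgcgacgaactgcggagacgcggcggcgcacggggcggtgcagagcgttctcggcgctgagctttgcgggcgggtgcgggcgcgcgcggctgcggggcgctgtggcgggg

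The first Hs6st2 stretch held 1 TATAAA match and no CAGCTG match, and the other stretches shown held neither. Over all 32851 promoters of this length, 13.6% held TATAAA and 16.3% held CAGCTG, so a match or its absence is a description only. CG dinucleotides numbered 12 and 33 in the Hs6st2 stretches and 47 in that of Hs6st1, against a median of 7 over all promoters. Of the other members matched, only the first start site of Sulf2 held either motif, with 1 match of each, and the matches did not overlap.

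Hs6st2 was read in WT cells and nearly absent in the Gne KO clone. The 3 WT proliferative libraries held 658, 914 and 887 normalized counts and the WT differentiated libraries 558, 526 and 609. The 3 KO proliferative libraries held 0, 3 and 0 reads, and the KO differentiated libraries 2, 1 and 1. Summed over a group, the KO level was 0.133% of WT in proliferative cells (95% exact Poisson interval of the 3 KO reads 0.0274 to 0.388%). In differentiated cells it was 0.225% (0.0614 to 0.577% for 4 reads). These intervals cover only the counting error of the KO reads, with the WT reads taken as fixed. They take no account of the choice of Hs6st2 for these same values, so they describe the reads and support nothing. No KO library overlapped any WT library. The one contrast of this gene that did not enter its choice was that between the states of WT cells, where it fell by 0.52 on the log2 scale (SE 0.13, adjusted p = 0.00585, limma voom, groups not overlapping). With limma's trend method this fall had an adjusted p of 0.241.

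The genes around Hs6st2 were examined next. Within 1 Mb of it start 18 other genes with listed counts, those without a read included. Of these, 14 had fewer than 10 counts over the 12 libraries. None of the 4 tested met the effect limit in either Gne KO against WT comparison. Past the threshold alone, 3 of the 4 were lower in KO in proliferative cells, where 27.2% of all tested genes were. They were Rap2c (-1.12, adjusted p = 2.58e-06), Mbnl3 (-0.70, 0.000959) and Firre (-0.68, 0.00451). Mbnl3 was higher in differentiated cells (0.95, 5.54e-05), as were 11.1% of all genes. These 3 are named after their values were seen. Their GC contents are 36.5% (Rap2c), 39.8% (Mbnl3) and 50.6% (Firre), and genes of low GC tended to be lower in KO proliferative libraries, as described below. The part of this trend in their values was not tested. The effect limit, taken from the study's methods, asks for a mean m of at least 5 normalized counts and a log2 fold change, in either direction, of more than 0.9 + 7.5/√m. Rap2c, with a mean of 1117.6 and a log2 fold change of -1.123 in proliferative cells, fell only just short of it. The nearby glypican genes Gpc3 and Gpc4, which encode heparan sulfate core proteins, were barely read in any group. Gpc3 held 0 to 3 reads per library and Gpc4 0 to 3 as well, and the latter was not tested. Along the X chromosome, 13.7% of 583 tested genes were lower in KO past the effect limit in proliferative cells, against 6.88% of all genes, and 4.63% against 2.48% in differentiated cells. Over the 12 libraries, the level of Hs6st2 (log2 CPM, counts scaled to library size) was most like those of Iqsec3 (Pearson r = 0.986), Tenm3 (0.981) and Rnf207 (0.981), all 3 of which were low in both KO groups. Because Hs6st2 was chosen for its near loss in KO, its closest matches had to be low there. These correlations are thus a description and support nothing.

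Hs6st1 supplied nearly all of the 6-O-sulfotransferase transcript in KO cells. Its normalized counts were 2424, 2493 and 2436 in WT proliferative, 1358, 1374 and 1410.4 in WT differentiated, 2801, 3542 and 3236 in KO proliferative and 1575, 1511 and 1501 in KO differentiated cells. Every KO library exceeded every WT library of the same state, and every proliferative library exceeded every differentiated library of the same genotype. In proliferative cells Hs6st1 was higher in KO by 0.37 (log2, SE 0.08, adjusted p = 0.00112). In differentiated cells the difference was 0.15 and missed the threshold (adjusted p = 0.245, 95% interval -0.04 to 0.33), though it passed with only the 6 libraries compared (adjusted p = 0.00865). The fall with differentiation measured 0.83 in WT (adjusted p = 2.69e-06) and 1.05 in KO (adjusted p = 3.79e-08), and this change with state did not differ detectably between genotypes (interaction -0.23, adjusted p = 0.14). That difference passed without KO proliferative library 1 (-0.32, adjusted p = 0.00366), with quality weights (-0.27, 0.0172) and without that library and WT proliferative library 1 together (-0.31, 0.00495). With a trend in GC content and length removed it had the other sign and did not pass (0.10, adjusted p = 0.467).

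Counted per kb of exon, so that the relatives can be added, Hs6st1 and Hs6st2 together stood at 20.7 ± 0.877 CPM per kb (SD, n = 3) in WT proliferative and 21.8 ± 2.54 in KO proliferative cells. In differentiated cells the sums were 12.1 ± 0.361 in WT and 10.4 ± 0.278 in KO. Hs6st2 made up 19.1% of the sum in WT proliferative and 22.5% in WT differentiated cells, and 0.0232% and 0.0577% in the matching KO cells. The summed level of proliferative KO libraries spanned that of WT, while all differentiated KO libraries lay below all WT ones. In the proliferative sum the higher Hs6st1 of KO is counted as measured. With a trend in GC content and length removed, that Hs6st1 difference was -0.00 (log2, adjusted p = 0.996, limma voom). These sums were not tested, because they contain the gene that was selected.

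**Figure D1:**
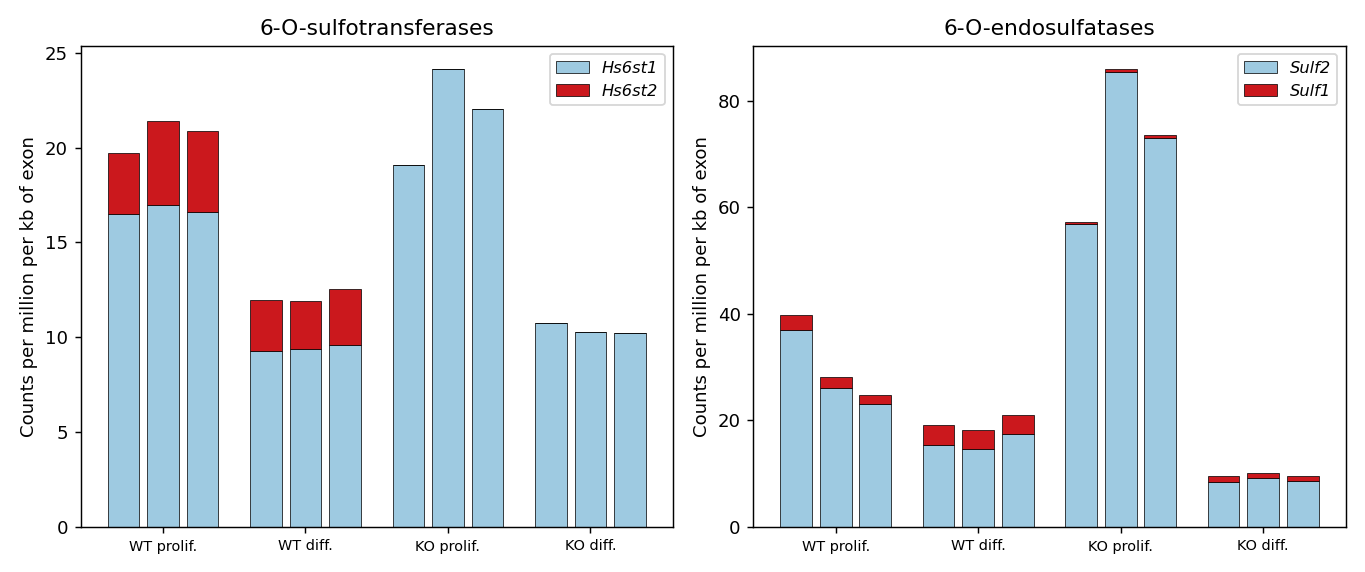
CPM per kb of exon (y axis) of the 2 6-O-sulfotransferase genes (left) and the 2 6-O-endosulfatase genes (right), stacked, with 1 bar for each of the 3 libraries of a group. Hs6st2 supplies 19.1 and 22.5% of the left sum in WT cells and is not visible in KO, and Sulf2 dominates the right sum in all groups.

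The 6-O-endosulfatases showed the largest differences between KO and WT among the 9 members tested. Sulf1, at chr1:12692277-12861192, was lower in KO in both states. It held 817, 594 and 517 normalized counts in WT proliferative and 105, 153 and 119 in KO proliferative libraries. In differentiated libraries it held 1101, 1086 and 1097 in WT and 311, 278 and 273 in KO. No KO library reached the lowest WT library of its state. In proliferative cells the difference was -2.36 on the log2 scale (SE 0.19, adjusted p = 8.56e-08), which is 5.15 times lower. In differentiated cells it was -1.93 (SE 0.15, adjusted p = 1.69e-07), which is 3.80 times lower. These effects did not differ detectably between the states (interaction 0.44, 95% interval -0.06 to 0.94, adjusted p = 0.153). That difference passed in 2 of 21 alternatives, with scaling by library size alone (0.65, adjusted p = 0.045) and without WT proliferative library 3 (0.58, 0.0458). Sulf1 rose with differentiation in WT by 0.78 (adjusted p = 0.000268) and in KO by 1.22 (adjusted p = 6.06e-05). The skeletal muscle marker sum was also lower in KO in both states, and its part in the lower Sulf1 and Hs6st2 was not tested.

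Sulf2, on the minus strand at chr2:166073089-166155663, moved in opposite directions in the 2 states. Its normalized counts were 5760.4, 4059.8 and 3590.8 in WT proliferative and 8843, 13295 and 11367 in KO proliferative libraries. After the change of serum they were 2400.3, 2275 and 2700.4 in WT and 1322, 1433 and 1329 in KO. The lowest KO library was thus above the highest WT library in proliferation, and the order was turned in differentiated cells. In proliferative cells Sulf2 was higher in KO by 1.33 (SE 0.15, adjusted p = 3.18e-06). In differentiated cells it was lower in KO, at -0.85 (SE 0.16, adjusted p = 0.00129). The interaction of genotype and state was -2.18 (SE 0.22, adjusted p = 4.2e-06). Within KO cells Sulf2 fell by 3.02 with differentiation, an 8.09-fold drop (adjusted p = 5.66e-10), and within WT by 0.84 (adjusted p = 0.000719). The end of Sulf2 overlaps Ncoa3 on the other strand by 154 bases, and Ncoa3 differed by at most 0.29 (log2, either direction) in these 4 comparisons. Sulf2 was most like Gfm1, Racgap1 and Birc5 over the 12 libraries (r = 0.993 to 0.995), and the last 2 of these act in cell division. The smooth muscle marker sum, most of it Acta2, was also lowest in KO differentiated libraries. Acta2, Tagln and Cnn1 each had their lowest group mean there, while Actg2 and Myh11 did not. The part of these markers in the Sulf2 values was not tested.

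The balance of the 2 endosulfatase genes differed between groups. Per kb of exon, Sulf2 exceeded Sulf1 by 13.4 ± 0.205 times (SD, n = 3) in WT proliferative, 4.32 ± 0.368 times in WT differentiated, 171 ± 10.7 times in KO proliferative and 9.15 ± 0.895 times in KO differentiated cells. Both summed to 30.9 ± 7.87 CPM per kb in WT proliferative and 72.3 ± 14.4 in KO proliferative cells. In differentiated cells the sums were 19.5 ± 1.42 in WT and 9.72 ± 0.374 in KO, and the ranges of WT and KO did not overlap in either state. The sum was thus above WT in one state and below WT in the other.

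**Figure D2:**
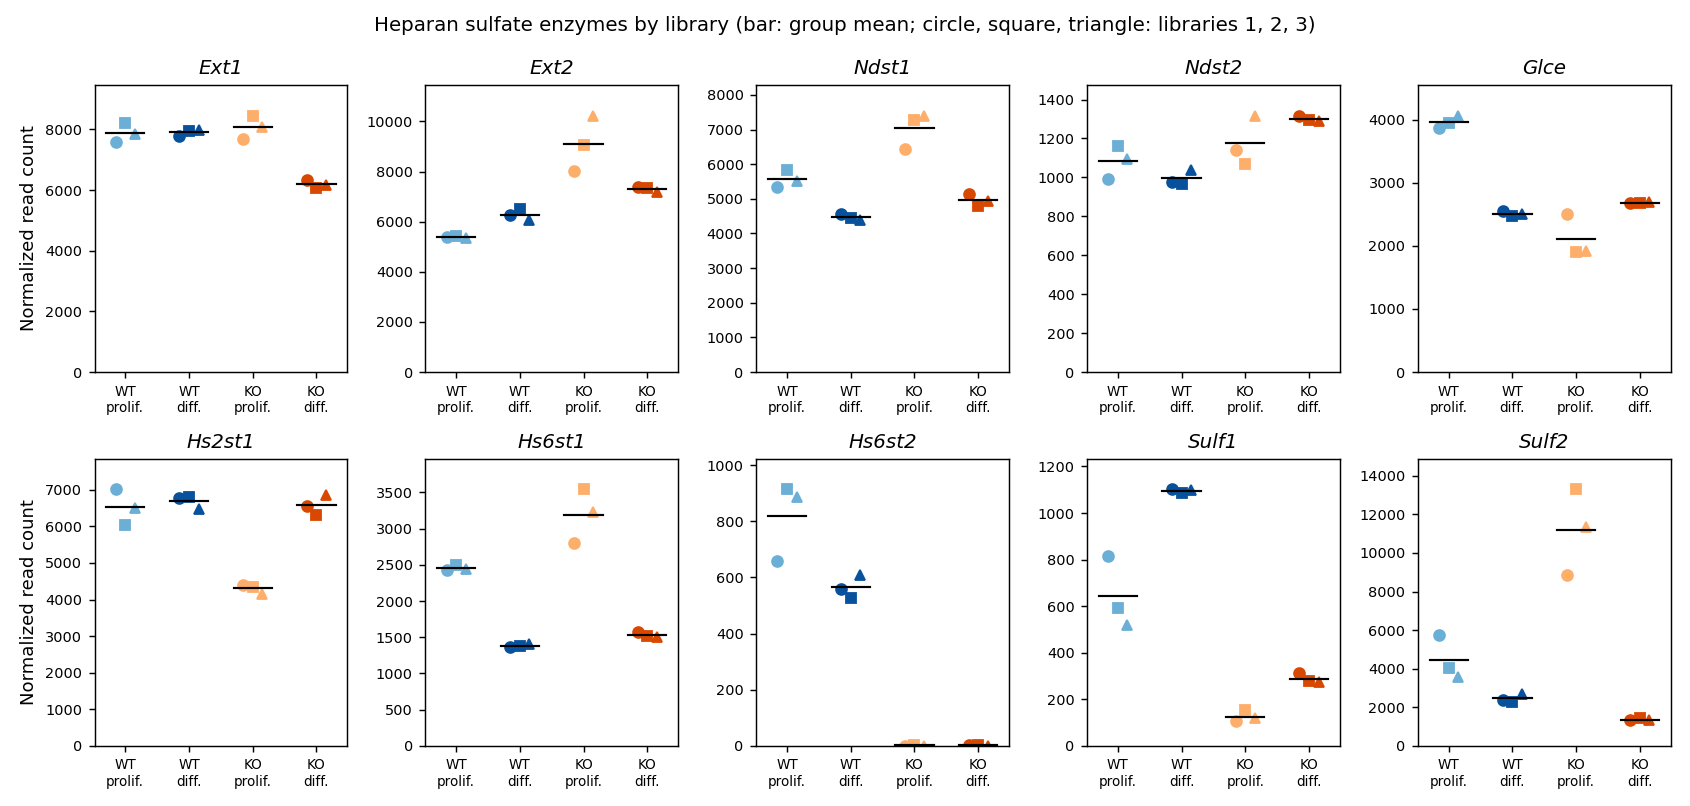
Normalized read counts (y axis, from 0) of the 10 genes in every library, with the 4 groups on the x axis, 1 symbol per library and a bar at the group mean. Hs6st2 is near 0 in both KO groups, Sulf1 is lower in KO in both states, and Sulf2 peaks in KO proliferative cells.

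The polymerase genes were among the most abundant members, at 27.8 to 47.0 CPM per kb in all groups, and differed from each other in pattern. Ext1 (chr15:53064038-53346159, minus strand) held 7582, 8201 and 7847 normalized counts in WT proliferative, 7775, 7942.5 and 7995 in WT differentiated and 7678, 8452 and 8079 in KO proliferative libraries. It was lower only in KO differentiated libraries, at 6324, 6084 and 6161.5, each below every other library. KO against WT gave 0.03 in proliferative (log2, adjusted p = 0.684) and -0.35 in differentiated cells (0.00107), with an interaction of -0.39 (SE 0.09, adjusted p = 0.00385). With scaling by library size alone the interaction was -0.17 (adjusted p = 0.134).

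Ext2 (chr2:93661028-93822568, minus strand) was highest in KO proliferative cells. It held 5401, 5429 and 5335 normalized counts in WT proliferative and 8021, 9078 and 10231 in KO proliferative libraries, and 6287, 6493.5 and 6076 in WT and 7388, 7339 and 7189.5 in KO differentiated libraries. Every KO library exceeded every WT library of its state. The difference was 0.75 (log2, SE 0.08, adjusted p = 1.72e-06) in proliferation and 0.22 (0.0655) after differentiation, and the effects differed by -0.53 (adjusted p = 0.00167). After differentiation the KO against WT difference of Ext2 passed in 8 of 22 alternatives. With differentiation Ext2 changed in KO by -0.31 (adjusted p = 0.00366) and in WT by 0.22 (adjusted p = 0.0497), the latter a call that was lost when any single WT library was left out (adjusted p 0.0724 to 0.19). The KO call was lost with scaling by library size alone (-0.05, adjusted p = 0.606) and with a trend in GC and length removed (-0.13, 0.115).

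The N-deacetylase and N-sulfotransferase genes showed small differences in the main fit. Ndst1, the more abundant of the pair, ranged from 5342 to 5843 normalized counts in WT proliferative and from 6429 to 7399 in KO proliferative libraries. Ndst1 was higher in KO by 0.34 (SE 0.07, adjusted p = 0.00107) in proliferative cells and by 0.15 (adjusted p = 0.158) in differentiated cells, where it passed in 5 of 22 alternatives. It fell with differentiation in WT by 0.32 (adjusted p = 0.00364) and in KO by 0.50 (adjusted p = 2.47e-05). Ndst2 was at 968 to 1039 normalized counts in WT differentiated and 1291 to 1315 in KO differentiated libraries, higher in KO by 0.39 (SE 0.09, adjusted p = 0.00487). Its proliferative groups overlapped (log2 fold change 0.12, 95% interval -0.07 to 0.31, adjusted p = 0.287).

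The genes of the iduronic acid steps were lower in KO in proliferative cells and close to WT in differentiated cells. Glce (chr9:62057248-62122655, minus strand) held 3864, 3948 and 4063 normalized counts in WT proliferative and 2505, 1896.5 and 1916 in KO proliferative libraries. In differentiated libraries it held 2545, 2479.8 and 2503 in WT and 2679.7, 2680.6 and 2699.5 in KO. The log2 fold change of KO against WT was -0.92 (SE 0.09, adjusted p = 7.85e-07) in proliferative and 0.10 (95% interval -0.10 to 0.29, adjusted p = 0.493) in differentiated cells. With differentiation Glce fell by 0.66 in WT (adjusted p = 4.83e-05) and rose by 0.36 in KO (adjusted p = 0.00335). The interaction was 1.02 (SE 0.13, adjusted p = 2.45e-05).

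Hs2st1 (chr3:144429706-144570181, minus strand) encodes the 2-O-sulfotransferase, which acts on iduronic acid. Its 3 KO proliferative libraries, at 4411, 4350.4 and 4150.3 normalized counts, lay below all others. WT proliferative libraries held 7011, 6046 and 6507, WT differentiated libraries 6764, 6810.0 and 6473, and KO differentiated libraries 6548, 6320.0 and 6851.5. The log2 fold change was -0.60 (SE 0.07, adjusted p = 5.66e-06) in proliferative and -0.02 (95% interval -0.18 to 0.13, adjusted p = 0.853) in differentiated cells. The difference between these effects was 0.57 (SE 0.10, adjusted p = 0.000412). Over the 12 libraries the pattern of Hs2st1 was most like those of Pmaip1, Sytl2 and Mef2a (r = 0.980 to 0.986), that of Glce like Ttc39b, Usp31 and Xpo1 (0.983 to 0.985), that of Ext1 like Fat1, Lgals9 and Tmem106a (0.968 to 0.981) and that of Ext2 like Isyna1, Apeh and Cdc42ep4 (0.995 to 0.999).

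**Figure D3:**
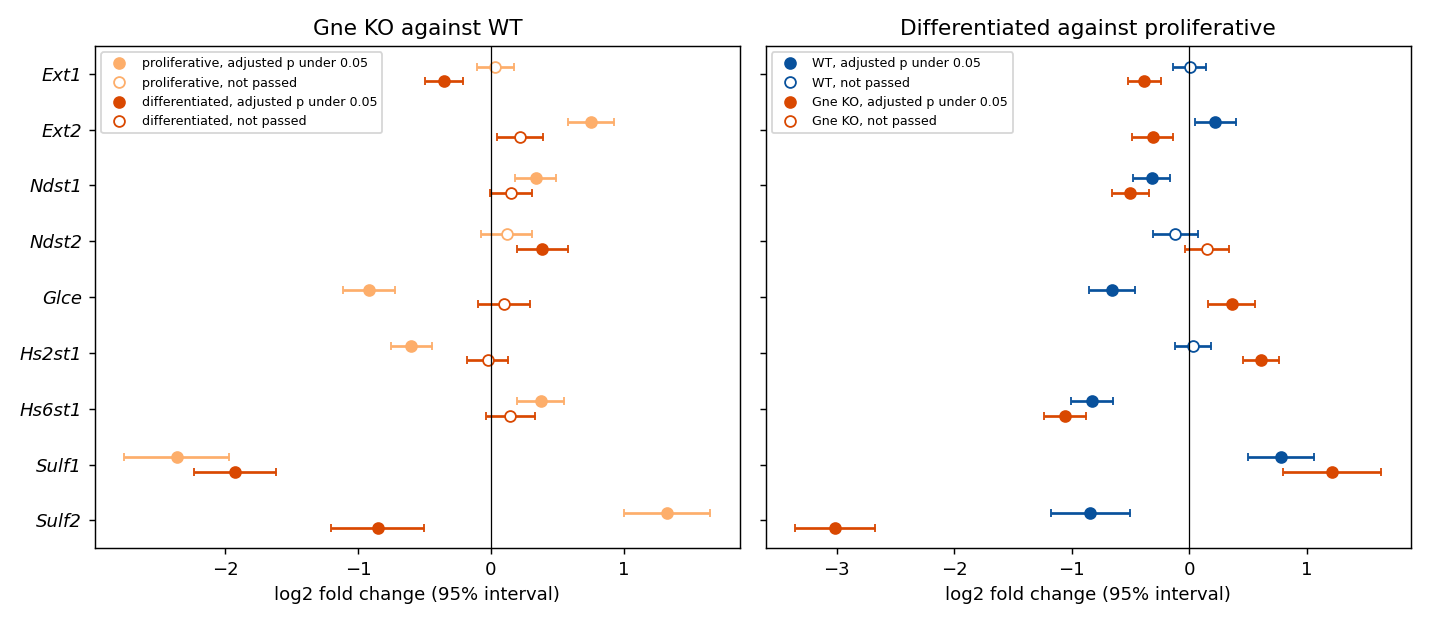
Log2 fold changes (x axis, with 95% intervals) of the 9 members other than Hs6st2, for Gne KO against WT in each state (left) and for differentiated against proliferative cells in each genotype (right). Filled points had an adjusted p under 0.05, and Sulf2 is above 0 in proliferative and below 0 in differentiated KO cells.

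Counted over the 9 members other than Hs6st2, 4 were higher and 3 lower in KO in proliferative cells, where 28.2% of all tested genes were higher and 27.2% lower. In differentiated cells 1 was higher and 3 were lower, against 11.1% and 12.5% of all genes. The effect limit was met by Sulf1 and Sulf2 in proliferative cells and by Sulf1 in differentiated cells, where 9.25% and 3% of all genes met it. With differentiation, 2 of 10 members rose and 5 fell in WT (16.6% and 15.3% of all genes). In KO, 3 of 9 rose and 5 fell (28.7% and 27.7%), and Sulf2 alone met the effect limit, as did 11.7% of all genes. Sulf1 (1.219) and Hs6st1 (-1.054) fell only just short of that limit in KO. Of the 9, 2 had a positive and 3 a negative interaction, against 19.7% and 22.2% of all genes, and Sulf2 met the effect limit, as did 8.53%. The median log2 fold change of the 9 was 0.12 in proliferative and 0.10 in differentiated cells for KO against WT, beside -0.02 and -0.01 over all tested genes. Comparisons that share a group of libraries are not independent of each other.

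Part of the small proliferative differences went with base composition. Across 10676 genes with a mean of at least 100, the log2 fold change of KO against WT rose with GC content in proliferative cells (Spearman 0.605, with genes as points that are no replicates) and less so in differentiated cells (0.145). The trend with differentiation in KO was -0.433 and that of the interaction -0.549. The members of lower GC, Glce (44.0%), Ext1 (44.1%), Hs2st1 (45.5%) and Sulf1 (46.7%), stand beside Ext2 (53.1%), Sulf2 (53.3%), Ndst1 (54.6%), Ndst2 (55.8%) and Hs6st1 (57.7%), around a median of 49.5%. With a trend in GC content and length removed from each library, the proliferative KO against WT value was -0.00 for Hs6st1 (adjusted p = 0.996) and 0.05 for Ndst1 (0.573), so both calls ended. It became 0.50 for Ext1 (0.00037) and -0.25 for Ndst2 (0.0265), which then passed. Glce and Hs2st1 stayed lower at -0.49 and -0.29, Ext2 stayed higher at 0.52, and Sulf1 and Sulf2 were at -2.09 and 1.06. Glce no longer rose with differentiation in KO (-0.01, adjusted p = 0.857). What gave rise to the trend was not tested.

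**Figure D4:**
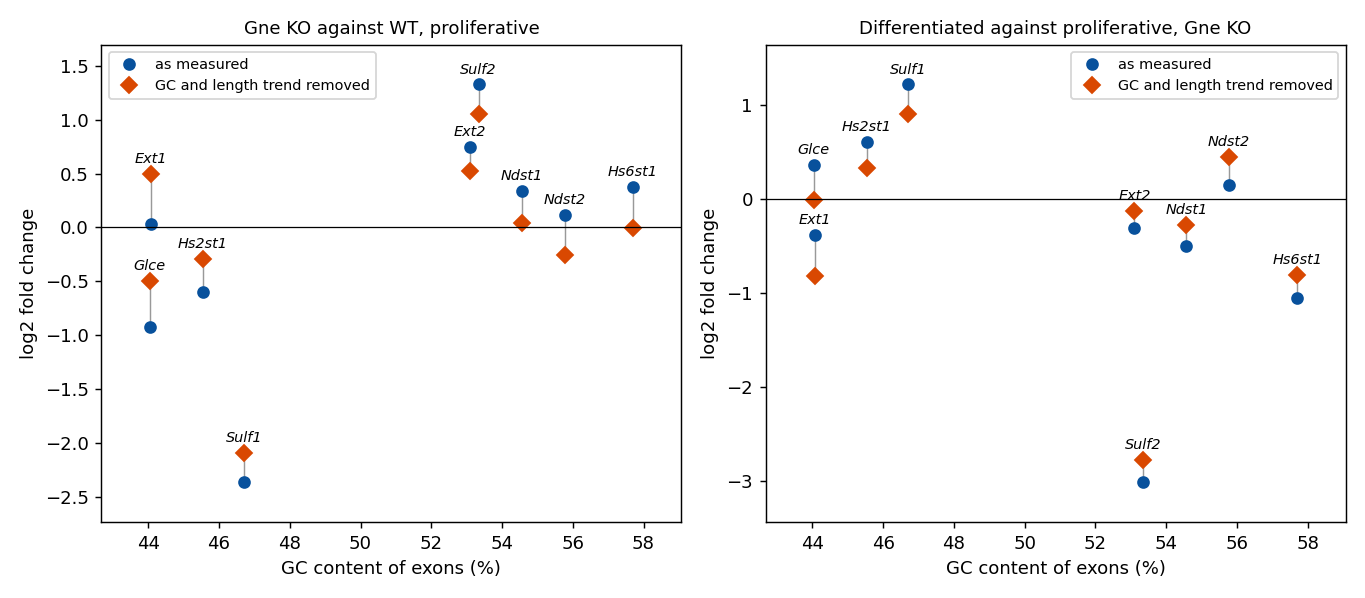
Log2 fold change (y axis) against the GC content of the exons (x axis, %) of the 9 members other than Hs6st2, as measured (circles) and after removal of a GC and length trend (diamonds), for KO against WT in proliferative cells (left) and for differentiation in KO (right). Hs6st1 and Ndst1 move to about 0 on the left, while Sulf1 and Sulf2 keep their sides in both plots.

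Genes of the rest of the pathway, from lists chosen with earlier results of these data known, were counted by role. Their counts stand beside 28.2% of all tested genes higher and 27.2% lower in KO in proliferative cells, and 11.1% higher and 12.5% lower in differentiated cells. Among other heparan sulfate sulfotransferases, 6 of 10 were tested, and 2 were lower in KO in proliferative cells, and 3 higher and 2 lower in differentiated cells. Hs3st3b1, a 3-O-sulfotransferase, had 28.7 ± 7.52 normalized counts (SD, n = 3) in WT proliferative and 33.4 ± 6.81 in WT differentiated cells. In KO cells its means were 0.715 ± 0.625 and 0.310 ± 0.536, with adjusted p of 8.17e-06 and 9.57e-06. Hs3st1, another 3-O-sulfotransferase, was at 47.8, 60.5 and 47.4 in KO differentiated libraries and at 1.0 to 6.7 in all others (KO against WT 3.23, adjusted p = 1.57e-05). The other 6-O relative, Hs6st3, had 0 counts in all 12 libraries.

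Of the core proteins that carry the chains, 12 of 14 were tested, and 7 were higher and 2 lower in KO in proliferative cells, and 3 higher and 1 lower in differentiated cells (all genes 28.2% and 27.2%, then 11.1% and 12.5%). Agrn, agrin of the basement membrane and the neuromuscular synapse, rose from 2801 ± 184 to 7697 ± 490 normalized counts in proliferative and from 4233 ± 77.4 to 10395 ± 218 in differentiated cells (log2 1.46 and 1.30, adjusted p = 1.76e-09 and 1.08e-08). Sdc3, the syndecan 3 gene, rose from 3555 ± 121 to 12008 ± 1882 in proliferative cells (log2 1.74, adjusted p = 3.23e-09). The GC content of Agrn is 56.5% and of Sdc3 58.7%, on the side that was higher in KO proliferative libraries, and both calls held with the trend removed.

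Of the 7 genes of the linkage region between core protein and chain, 4 were higher in KO in proliferative (28.2% of all genes) and 5 in differentiated cells (11.1%), and the others did not pass. Of the 3 EXT-like genes, 2 were higher in proliferative and 1 was lower in differentiated cells. Among 12 genes of nucleotide sugar and sulfate donor supply, 3 were higher and 5 lower in proliferative cells, where 28.2% and 27.2% of all genes were. In differentiated cells 0 passed with limma voom or limma trend, and 1 had an unadjusted p under 0.05. Slc35a3, a Golgi carrier of UDP-GlcNAc, was at -1.31 (adjusted p = 3.55e-06) and Impad1, a phosphatase of the sulfation by-product PAP, at -1.12 (adjusted p = 3.97e-06) in proliferative cells. Both have a low GC content (38.8 and 39.2%), and both calls ended with the trend removed (-0.12 and -0.08, adjusted p = 0.407 and 0.368). Of 9 lysosomal and extracellular degradation genes tested, 5 were higher and 1 lower in proliferative (28.2% and 27.2% of all genes), and 2 higher and 2 lower in differentiated cells (11.1% and 12.5%).

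Chondroitin and dermatan sulfate, the sister chains, start from the same linkage region. Of 16 genes of their synthesis, all tested, 4 were higher and 9 lower in KO in proliferative cells (28.2% and 27.2% of all genes), and 2 higher and 2 lower in differentiated cells, near the 11.1% and 12.5% of all genes. Chst7, a chondroitin 6-O-sulfotransferase on the X chromosome, fell from 65.7 ± 6.73 to 13.2 ± 1.77 normalized counts in proliferative cells (log2 -2.27, adjusted p = 2.2e-06). In differentiated cells it fell from 46.8 ± 7.35 to 6.92 ± 1.61 (log2 -2.68, adjusted p = 8.3e-06). Dsel, a dermatan sulfate epimerase, fell from 1307 ± 70.5 to 437 ± 166 in proliferative cells (log2 -1.63, adjusted p = 1.06e-06). Its GC content is 40.8%, and with the trend removed the value was -0.84 (adjusted p = 2.26e-05).

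**Figure D5:**
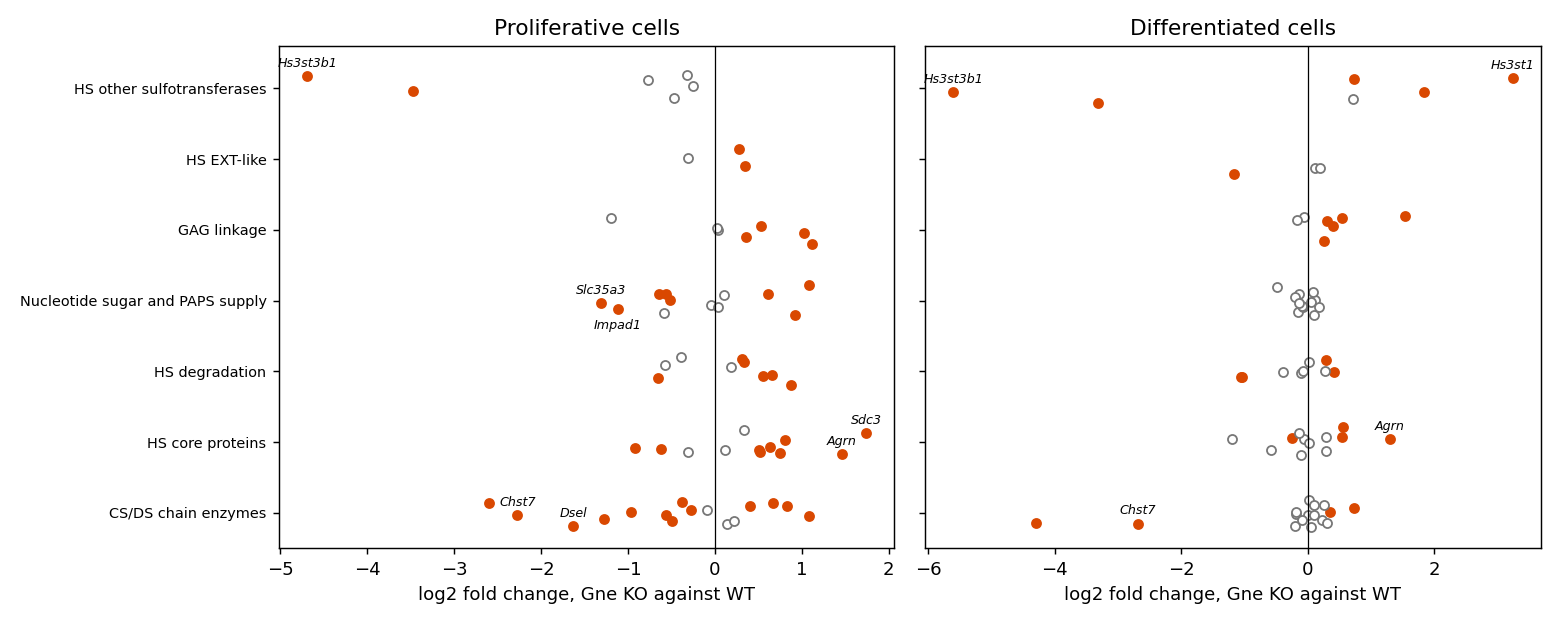
Log2 ratio of Gne KO to WT (x axis) for the tested genes of 7 further lists (y axis; HS, heparan sulfate; GAG, glycosaminoglycan; PAPS, the sulfate donor; CS/DS, chondroitin and dermatan sulfate) in proliferative (left) and differentiated cells (right). Filled points had an adjusted p under 0.05, names mark genes that also met the effect limit, and Hs3st3b1 and Chst7 are lower in KO in both plots.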

How the data were processed

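The authors prepared stranded mRNA libraries and deposited read counts per gene on GRCm38. DESeq2 1.22.1, HTSeq 0.6.1, TopHat2 2.1.1 and cutadapt 1.18 are listed without roles in the submitters' processing notes. Which strand setting the counting used is not given in the sources here. The deposited table lists 54838 genes with raw whole-number counts, and a question mark stands for the counts of 6252. Its other deposited columns, normalized counts, log2 fold changes and adjusted p-values of the authors' comparisons, were not used. Columns that mix whole numbers and question marks are not plain counts, so no count package was run.

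Genes with at least 10 counts were scaled by TMM factors (30% of log ratios and 5% of levels trimmed, base R) and fitted with voom in limma 3.58.1 (R 4.3.3) over the 4 groups. P-values were adjusted over all 20415 genes (Benjamini-Hochberg), with a threshold of 0.05. Normalized counts are counts divided by scaled library size and multiplied by the mean scaled library size. Library totals of 22612038 to 29389759 leave little counting error for members except Hs6st2 in KO. Exon lengths and GC contents came from GENCODE vM21. Libraries were grouped by the labels of the samples. The fit was tested on simulated counts.

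The members and lists were chosen with earlier results of these data known. All 10 members were named. Of other lists, at most 5 genes past the threshold and the effect limit in Gne KO against WT were named, together with Gpc3, Gpc4 and the 3 genes most correlated with Hs6st2 and with each member passing the interaction, among genes with a mean of at least 100. Promoter motifs were chosen with the sequences in view. Alternatives were other scalings, no filter, each library left out, a replicate block, removal of a GC and length trend, only the 6 libraries compared, limma trend and quality weights.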

Additional observations from a re-analysis of the deposited data

Results flagged for a closer look

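The effect of Gne KO against WT differed between the differentiated and the proliferative state for 5 of the 9 members tested, by limma's interaction term (3 libraries per group, adjusted over all genes tested, of which 19.7% had a positive and 22.2% a negative interaction). The difference in log2 fold change was -2.18 for Sulf2 and 1.02 for Glce. It was 0.57 for Hs2st1, -0.53 for Ext2 and -0.39 for Ext1. The interaction correlated with GC content across genes (Spearman -0.549), and once a trend with GC and exon length was taken out, the Hs2st1 difference was 0.28 (adjusted p = 0.0467, and 0.0726 with the replicate block added, which ends the call). In the same fit without the block the Sulf2 difference was -1.89, that of Glce 0.61, that of Ext2 -0.29 and that of Ext1 -0.84, all past the threshold. Ndst2, which did not pass in the main fit (0.27, adjusted p = 0.102), was at 0.62 in that fit (adjusted p = 0.00134). The Ext1 difference was -0.17 (adjusted p = 0.134) with scaling by library size alone.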

How the results depend on the processing

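Of 59 single-gene results under 1289 alternatives, 1212 counted as the same, 29 lost the call and 38 gained one. A further 7 turned direction with a call in the main fit or the alternative, and 3 values of Hs6st2 in KO moved by more than the replicate spread. A turn of sign without a call in either fit counted as the same. With the GC and length trend removed this was so for the interaction of Hs6st1 (0.10, main fit -0.23) and of Ndst1 (0.11, main fit -0.18). Calls of Sulf1 and Sulf2 in Gne KO against WT held in each state under all alternatives. With the GC and length trend removed, alone and with the replicate block, Hs6st1 was at -0.000487 and -0.0004996 and Ndst2 at -0.254 and -0.255 in KO against WT in proliferative cells, and Glce was at -0.0148 and -0.015 with differentiation in KO. Scaling by library size alone put Ext1 at -0.152 in KO against WT in proliferative cells, where the all-gene median went from -0.02 to -0.21, and ended the Ndst1 call there (adjusted p = 0.0528). The cause was not tested.

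Members passing in KO against WT in differentiated cells numbered 4 (23.6% of all genes passed), but 8 with only the 6 libraries compared (45.5%) and 7 with quality weights (45.2%). They numbered 7 (36.3%) without the libraries WT_P 1 and KO_P 1 together, an alternative chosen after seeing the data, under which 8 in place of 5 members passed the interaction (51.8% in place of 41.9% of all genes). The fit shares 1 spread over the groups, and proliferative replicates lay wider apart. Replicate numbers are shared between groups, but deviations of same-numbered libraries correlated at -0.373 to 0.110, over 0.1 in 2 of 18 pairs, so numbers were not taken as pairing. With the replicate block 7 members passed in KO against WT in proliferative cells, as without it, and Ext2 lost its WT differentiation call (adjusted p = 0.0708). Depth limits Hs6st2, Hs3st3b1 and Hs3st1, which held few reads in some groups.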
